A study of Mus musculus with 16 samples.

Results

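Messenger RNA from the prefrontal cortex was compared between all mice that carried a Cre transgene and all mice that did not. The Cre side held 12 libraries from 3 mouse lines with 4 libraries each, and the Cre-negative side held 4 control libraries, so that all 16 libraries of the series entered. The libraries were chosen by their genotype labels and by no measured value, and each line had the same weight in the mean of the Cre side. The question was which genes were higher or lower in all 3 lines, with one sign and a similar size.

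The APC cKO line carried APC fl/fl, in which exons 11 and 12 of the APC gene are flanked by loxP sites. The β-cat cOE line carried 1 copy of ctnnb1 fl(ex3), in which loss of exon 3 leaves a β-catenin that resists degradation. The APC/β-cat cKO line carried APC fl/fl and ctnnb1 fl/fl, the latter with loxP sites around exons 2 to 6. All 3 lines carried the identical CamKIIα-Cre-93 transgene, whose promoter is active mainly in excitatory neurons of the forebrain. The controls were Cre-negative littermates that had been pooled from all lines, and the mice were 2 to 3 months old and of both sexes. Whether each library came from 1 mouse is not stated in the labels, so the p-values measure the spread between these libraries. Cre itself, the DNA that travels with its transgene, and recombination of any floxed allele are each present in all 12 Cre libraries and absent from all 4 controls, and so cannot be told apart here.

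Cre recombinase cuts DNA at paired loxP sites and removes or inverts what lies between them. β-catenin links cadherins to the cytoskeleton at cell contacts and also enters the nucleus, where it acts with TCF/LEF factors on Wnt target genes. APC is a scaffold of the destruction complex that marks β-catenin for degradation. The lines were made to raise β-catenin, in APC cKOs and β-cat cOEs, or to lower it, in APC/β-cat cKOs, so what they share by design is the Cre transgene and not the direction of β-catenin.

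The deposited values were turned back into FPKM, the fragments mapped to a gene relative to its transcript length and to the library's mapped fragments, and tested with limma on log2(FPKM + 0.1) for the 13978 genes whose mean reached 0.5 FPKM. A gene was called at a Benjamini-Hochberg adjusted p under 0.05 over all of them. Sequencing depth is unknown, and between 5726 and 6649 genes were listed at 0 in a library. By Xist and 4 genes of the Y chromosome, replicate 1 of the controls and replicate 1 of the APC cKO line were female and the other 14 libraries male. Control replicate 1 also held more RNA of striatal projection neurons than the other controls, with a median difference of 1.98 on the log2 scale over 13 genes, all of them above every other control. The number of calls and the counts of several gene lists are given with and without this library.

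Only 5 genes were called, 0.0358% of those tested, and 3 of them changed with one sign and a similar size in all lines. Fam131b rose by 0.74 (standard error 0.044, adjusted p = 2.29e-07), Zyx rose by 0.49 (standard error 0.066, adjusted p = 0.00656), and Casp2 fell by 0.94 (standard error 0.099, adjusted p = 0.000475), all on the log2 scale. The other calls were Apc, which fell in the lines with APC fl/fl, and Wwox, which rose in 1 line. Similar size meant that the largest of the 3 line changes was at most 2 times the smallest, and that limma's F test of a difference among the lines gave an unadjusted p of at least 0.05. At an unadjusted p under 0.05 there were 1257 genes, 8.99% of those tested, with 650 higher (4.65%) and 607 lower (4.34%). All 12 Cre libraries lay beyond all 4 controls in 28 genes (0.200%), 12 higher and 16 lower.

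Fam131b, Casp2 and Zyx are neighbours on chromosome 6, and another gene of the same stretch, Gstk1, was lower in the same libraries with an adjusted p of 0.0536. The 4 genes, in the order Gstk1, Casp2, Fam131b and Zyx, span 112.5 kb in the coordinates of the files (mm10, chr6:42245935-42358395). Gstk1, Casp2 and Zyx are on the plus strand and Fam131b is on the minus strand, and GENCODE lists all 4 as protein-coding. No other tested gene lies between them. Tmem139 and Clcn1, which do, were below the filter, with means of 0.0126 FPKM and 0.245 FPKM over the 16 libraries. In GENCODE the end of Clcn1 overlaps the end of Fam131b on the opposite strand, and whether the counting used strand is not given in the sources used here. These genes had been seen in earlier results of the same libraries, and their place in the comparison was therefore known.

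Fam131b was at 63.2, 64.1, 67.2 and 66.7 FPKM in the 4 controls. The APC cKO libraries were at 108.2, 111.7, 98.7 and 109.9 FPKM. The β-cat cOE libraries were at 110.0, 112.3, 117.1 and 105.1 FPKM, and those of the APC/β-cat cKO line were at 119.9, 104.3, 108.7 and 106.9 FPKM. The lowest Cre library was far above the highest control, and the 3 lines covered the same range. The control mean of 65.3 ± 1.92 FPKM stood against 107.1 ± 5.80 FPKM for the APC cKO line, 111.1 ± 4.98 FPKM for the β-cat cOE line, and 110.0 ± 6.86 FPKM for the APC/β-cat cKO line (SD, n = 4 each). The Cre libraries were 1.67-fold higher on the fitted scale, with a 95% confidence interval from 0.65 to 0.84 for the log2 change. Against the shared controls, the change was 0.71 for the APC cKO line, 0.77 for the β-cat cOE line, and 0.75 for the APC/β-cat cKO line. Fam131b encodes a protein of little-known function.

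Casp2 encodes an initiator caspase, a protease that takes part in cell death and in the response to DNA damage. It was at 3.36, 3.42, 3.52 and 3.85 FPKM in controls and at 2.09, 1.499, 1.94 and 1.93 FPKM in APC cKOs. In β-cat cOEs the 4 values were 2.20, 1.59, 1.91 and 1.83 FPKM, and in APC/β-cat cKOs 1.57, 1.89, 1.58 and 1.64 FPKM. No Cre library reached the lowest control. The fall corresponds to a 1.92-fold higher level in controls, with an interval from -1.15 to -0.73 for the log2 change. By line it was -0.90, -0.88 and -1.04, in the order APC cKO, β-cat cOE, then APC/β-cat cKO, which is kept below.

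Zyx encodes zyxin, a LIM-domain protein of focal adhesions and actin fibres. Controls were at 15.5, 14.8, 13.03 and 14.98 FPKM, and APC cKOs at 22.8, 21.1, 18.0 and 24.3 FPKM. The 4 β-cat cOEs were at 18.5, 18.5, 20.3 and 18.5 FPKM, and the 4 APC/β-cat cKOs at 21.4, 21.8, 19.7 and 21.1 FPKM. All 12 Cre libraries were above all controls, by a smaller distance than for Fam131b. The change by line was 0.55, 0.38 and 0.53, and the interval of the mean change was 0.35 to 0.63.

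Gstk1 encodes a glutathione transferase of mitochondria and peroxisomes. Controls were at 9.54, 9.57, 10.97 and 11.4 FPKM. The APC cKO libraries were at 8.04, 4.40, 4.84 and 5.44 FPKM, the β-cat cOE libraries at 4.74, 5.30, 5.10 and 6.66 FPKM, and the APC/β-cat cKO libraries at 5.33, 6.68, 5.71 and 8.35 FPKM. Again no Cre library reached the controls, but the Cre libraries were spread more widely. The log2 change was -0.83 (standard error 0.14, 95% confidence interval -1.13 to -0.53), and it was -0.89, -0.92 and -0.68 in the 3 lines. Gstk1 passed the adjusted threshold under 9 of 31 alternatives, among them the fit without APC cKO replicate 1 (adjusted p = 0.00372).

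**Figure D1:**
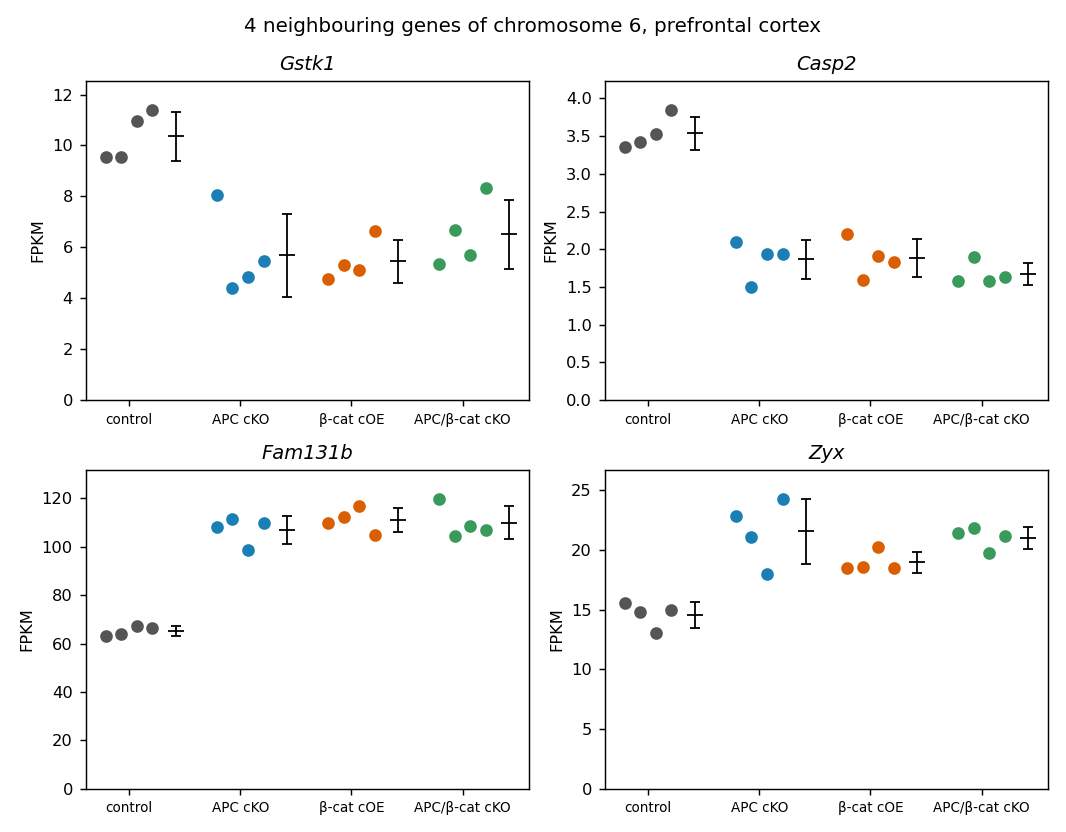
FPKM of Gstk1, Casp2, Fam131b and Zyx in each library (dots), by genotype, with the mean and SD of each group of 4 libraries at its right (black); every axis starts at 0. In each panel all 12 Cre libraries lie on one side of the 4 controls, below them for Gstk1 and Casp2 and above them for Fam131b and Zyx.

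An exact two-sided permutation test of 12 against 4 libraries gave p = 0.000549 for each of these 4 genes, the smallest that the arrangements of 12 against 4 allow. This value restates that all Cre libraries lay beyond all controls. It is no separate support, since these genes were known from earlier results of the same libraries. The estimated differences between lines were smaller than these changes, most clearly for Fam131b, while the intervals for Gstk1 were wide. For Fam131b the 3 pairwise differences lay between -0.016 and 0.053, and their 95% confidence intervals stayed within -0.13 and 0.17. For Casp2 the intervals stayed within -0.42 and 0.27, and for Gstk1 within -0.40 and 0.61. For Zyx, β-cat cOEs were 0.18 lower than APC cKOs, with an interval from -0.35 to -0.0049, and the F test among the 3 lines gave an unadjusted p of 0.0946. That test gave 0.601 for Fam131b, 0.378 for Casp2 and 0.329 for Gstk1, which does not show that the lines are alike beyond these intervals.

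The bases before the annotated start of each of the 4 genes are shown because the genes are adjacent and moved in the same libraries, in opposite directions. They come from RefSeq (GRCm38.p6, all on chromosome 6), each 5′ to 3′ on the strand of its gene, with capitals for GC boxes (GGGCGG or CCGCCC) and AP-1 letters (TGANTCA). Each window is the 250 bases before the start site, except for Zyx, where an annotated transcript begins inside the window and only the 52 bases before it are printed, with the AP-1 letters and 10 bases on each side.
Gstk1, chr6:42245685-42245934, plus strand: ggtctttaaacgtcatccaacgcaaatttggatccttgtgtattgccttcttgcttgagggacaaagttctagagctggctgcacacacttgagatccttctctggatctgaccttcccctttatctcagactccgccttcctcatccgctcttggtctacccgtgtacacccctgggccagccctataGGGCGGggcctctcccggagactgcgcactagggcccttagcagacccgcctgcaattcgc
Casp2, chr6:42264735-42264984, plus strand: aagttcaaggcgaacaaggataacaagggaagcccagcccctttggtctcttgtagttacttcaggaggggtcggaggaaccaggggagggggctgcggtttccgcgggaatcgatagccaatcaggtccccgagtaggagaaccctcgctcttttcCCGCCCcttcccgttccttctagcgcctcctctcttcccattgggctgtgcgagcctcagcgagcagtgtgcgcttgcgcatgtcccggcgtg
Fam131b, chr6:42324641-42324890, minus strand: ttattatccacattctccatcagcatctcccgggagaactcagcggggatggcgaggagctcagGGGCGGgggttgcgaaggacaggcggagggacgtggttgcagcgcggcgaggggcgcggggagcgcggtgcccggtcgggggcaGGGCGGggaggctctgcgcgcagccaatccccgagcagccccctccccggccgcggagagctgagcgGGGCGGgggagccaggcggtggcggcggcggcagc
Zyx, chr6:42349578-42349629, plus strand: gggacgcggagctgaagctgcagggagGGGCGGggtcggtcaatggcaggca
Zyx AP-1 letters, chr6:42349697-42349723, plus strand: gtgcggacagTGAGTCAgttctccagc

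All 4 windows held a GC box, which 32.7% of 32851 RefSeq promoter windows of this length hold on either strand. Fam131b had 3, Zyx 2, of which 1 is in the printed bases, and Gstk1 and Casp2 had 1 each. The TCF/LEF core CTTTGA, found in 13.8% of windows, was in none of the 4, and neither were the letters of a cAMP response element, TGACGTCA (1.55% of windows), or of an E-box, CACGTG (6.02%). The AP-1 letters, in 6.75% of windows, occurred once, in that of Zyx, 121 bases before its start site. The GC content was 55.6% for Gstk1, 60.4% for Casp2, 74.4% for Fam131b and 67.6% for Zyx, against a median of 52.4% over all windows. A match describes letters only, and its absence from a short window says nothing of a factor.

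No other tested gene near this stretch passed even the unadjusted threshold. Within 2 Mb of Fam131b there were 9 other tested genes, and 0 of them had an unadjusted p under 0.05, with changes between -0.23 and 0.044 and a smallest p of 0.150. On the side of Gstk1 the nearest were Trpv6, an epithelial calcium channel, at -0.12 (standard error 0.18), and Ephb6, an ephrin receptor, at -0.10 (standard error 0.11), whose starts lie at -694.7 and -709.8 kb from that of Fam131b. On the side of Zyx the nearest was Fam115a, 357.2 kb away, at -0.017 (standard error 0.073). The other genes listed in between, among them taste and olfactory receptors, were all under the filter and could not be tested.

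**Figure D2:**
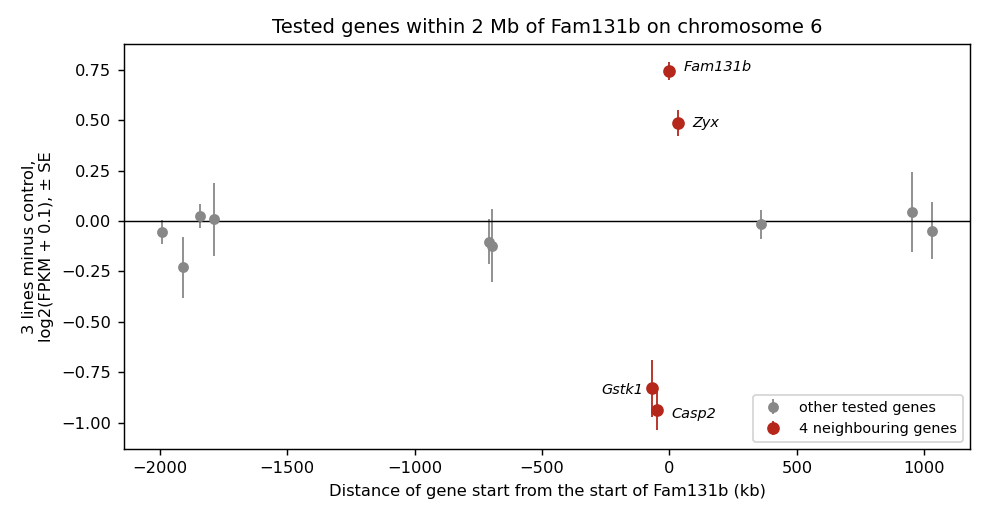
Difference between the mean of the 3 Cre lines and control on the log2(FPKM + 0.1) scale, with its standard error (vertical bars), against the distance of each gene's start from the start of Fam131b in kb, for all tested genes within 2 Mb. Gstk1, Casp2, Fam131b and Zyx (red) lie between -0.94 and 0.74, and the other 9 genes (grey) between -0.23 and 0.044.

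The other called genes did not change alike. Apc had a mean of 43.9 ± 4.21 FPKM in controls and 44.5 ± 5.11 FPKM in the β-cat cOE line, against 11.7 ± 3.88 FPKM in the APC cKO line and 10.05 ± 2.30 FPKM in the APC/β-cat cKO line (SD, n = 4 each). Its mean change of -1.36 (adjusted p = 0.00134) was made up of -1.95, 0.017 and -2.14, so that it lay in the lines with floxed APC. Ctnnb1 itself, whose floxed exons are a part of its transcript, had a mean change of 0.013 (adjusted p = 0.924). That mean was made up of small changes of both signs, 0.090, -0.0016 and -0.049. The F test among the 3 lines gave Ctnnb1 an unadjusted p of 0.0250 and an adjusted p of 0.353. Wwox, the gene of a WW-domain oxidoreductase on chromosome 8, was at 31.2 to 35.0 FPKM in APC/β-cat cKOs and at 8.82 to 11.7 FPKM in the other 12 libraries. Its mean change of 0.42 (adjusted p = 0.0167) came from APC/β-cat cKOs at 1.57, against -0.14 and -0.18 in the other lines. This call was lost under 5 of 31 alternatives, among them the fits without control replicate 2 (adjusted p = 0.0741) and without control replicate 4 (0.117). The F test among the 3 lines called 36 genes (0.258%), with Apc and Wwox among them (adjusted p = 4.56e-05 and 1.79e-09).

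Asking each line to differ from control by itself gave a wider set. One sign in all 3 lines was found in 7322 genes, 52.4% of those tested, and an unadjusted p under 0.05 in each line as well in 93 genes (0.665%), 52 higher and 41 lower. The 3 line comparisons share the 4 control libraries, so an unusual control value enters all of them, and no adjusted p belongs to this count. The changes of the 93 genes were small, with a median size of 0.28 on the log2 scale, 51 of them under 0.3, and 14 above 0.5 against 7 below -0.5. In 90 genes the F test gave an unadjusted p of at least 0.05, and in 90 the line changes were within 2 times of each other. Their median level of 10.2 FPKM was close to the 10.01 FPKM of all tested genes. The largest of the 3 changes was in APC/β-cat cKOs in 41 genes, in APC cKOs in 33 and in β-cat cOEs in 19.

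**Figure D3:**
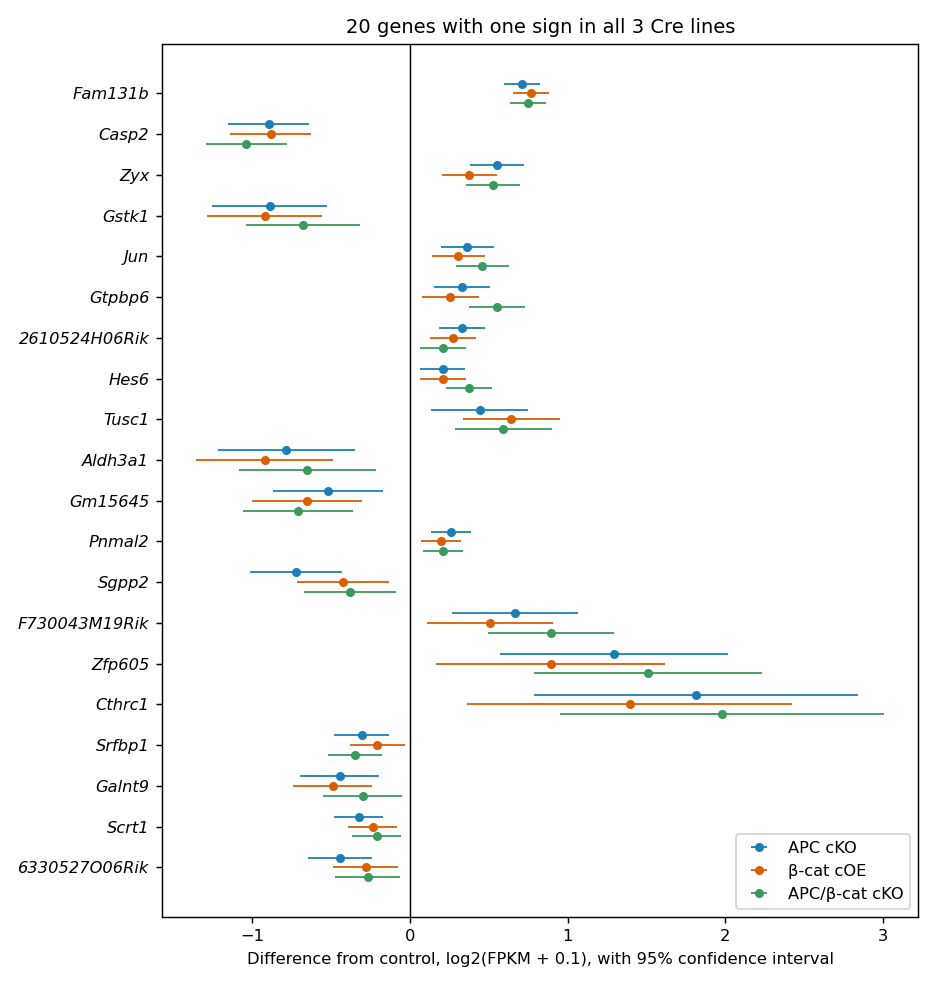
Difference of each Cre line from control on the log2(FPKM + 0.1) scale, with its 95% confidence interval, for the 20 genes with the smallest p for the mean of the lines among the 93 that differed from control with one sign in each line. All intervals stay on one side of 0 because each line was required to differ, and the 3 changes of Fam131b lie between 0.71 and 0.77.

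The 20 of them with the smallest p for the mean of the lines, picked after their values were seen, were led by the 4 genes of chromosome 6. Jun followed. It encodes a subunit of the AP-1 transcription factor and is induced by neuronal activity and stress. Controls were at 14.1, 14.2, 13.5 and 15.03 FPKM. The APC cKO libraries were at 20.4, 14.8, 19.2 and 19.2 FPKM, the β-cat cOE libraries at 17.3, 17.3, 17.2 and 18.5 FPKM, and the APC/β-cat cKO libraries at 19.4, 20.2, 19.95 and 18.6 FPKM. APC cKO replicate 2 lay within the controls, and the other 11 Cre libraries lay above them. The change was 0.38 (standard error 0.065, adjusted p = 0.0597) in the mean, and 0.36, 0.31 and 0.46 by line. Over 31 alternatives its adjusted p ran from 0.00045, in the fit that left out the overlapping APC cKO replicate 2, to 0.417, and it passed the threshold under 3.

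Of the remaining 15, none was called, and their adjusted p-values ran from 0.0907 to 0.350. Gtpbp6, a GTPase of the mitochondrial ribosome, was at 14.4 to 18.5 FPKM in controls and at 16.7 to 25.4 FPKM in the Cre lines, a change of 0.38 that was larger in APC/β-cat cKOs (0.55) than in APC cKOs (0.33) or β-cat cOEs (0.26), with an unadjusted F test p of 0.00817. Hes6, a relative of the Notch-responsive Hes repressors, was at 7.67 to 9.03 FPKM in controls and at 8.93 to 11.4 FPKM in the lines (0.26). Tusc1, a candidate tumour suppressor, was at 2.47 to 3.86 FPKM in controls and at 3.80 to 5.35 FPKM in the lines (0.56). Both overlapped the controls in a single Cre library.

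Among those lower in the lines, Aldh3a1, an aldehyde dehydrogenase, was at 2.02 to 3.77 FPKM in controls and at 1.03 to 2.06 FPKM in Cre libraries (-0.79). Sgpp2, a phosphatase of sphingosine 1-phosphate, was at 7.29 to 9.02 FPKM in controls and at 3.57 to 7.63 FPKM in Cre libraries (-0.51). In both genes 11 of 12 Cre libraries were below all controls. Pnmal2 was separate, at 84.9 to 94.5 FPKM in controls and 97.9 to 122.3 FPKM in the lines, but by only 0.22.

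Chromosome 5 held 14 of the 93 genes, 1.62% of the 864 tested there, and chromosome 6 held 8 (1.17% of 684), 4 of them the stretch around Fam131b. On chromosome 5, 7 of the 14 lay in the stretch chr5:107534711-116006341 (mm10), where 21 of 103 tested genes (20.4%) had an unadjusted p under 0.05, 14 higher and 7 lower. The share was 8.67% on the rest of the chromosome. This window was drawn after its genes had been seen and carries no test. Several of its genes share a locus in the files, such as Gtpbp6 and Plcxd1, or lie beside each other, such as 1500011B03Rik and 2610524H06Rik, so they are not independent counts.

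Cplx1, a complexin that acts on synaptic vesicle fusion, lies in that window and was at 363 to 389 FPKM in controls and at 290.0 to 358 FPKM in the lines (-0.20, adjusted p = 0.298). Galnt9, a transferase that starts O-glycan chains, was at 34.9 to 36.5 FPKM in controls and at 19.1 to 32.6 FPKM in the lines (-0.41, adjusted p = 0.293). Ulk1, a kinase that starts autophagy, was at 16.6 to 16.9 FPKM in controls and at 13.3 to 16.3 FPKM in the lines (-0.13, adjusted p = 0.523). In each of these 3 genes all 12 Cre libraries were below all controls.

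Zfp605, a zinc finger gene next to Gtpbp6, was above all controls in 10 of 12 Cre libraries, with 2 libraries that lay away from their groups. Controls were at 15.4, 7.28, 6.60 and 6.41 FPKM. APC cKOs were at 21.7, 24.9, 13.9 and 23.6 FPKM, β-cat cOEs at 22.9, 15.5, 23.95 and 6.78 FPKM, and APC/β-cat cKOs at 24.6, 22.2, 24.4 and 24.3 FPKM. Control replicate 1 lay with the intermediate Cre libraries, and β-cat cOE replicate 4 lay with the low controls. The same libraries stood out in Golga3, a golgin gene farther along the same window, with 13.8 FPKM in control replicate 1 against 6.95 to 7.47 FPKM in the other controls, and with 6.89 FPKM in β-cat cOE replicate 4 against 11.6 to 12.6 FPKM in the others of its line. The change was 1.23 (adjusted p = 0.282) for Zfp605 and 0.42 (adjusted p = 0.533) for Golga3.

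**Figure D4:**
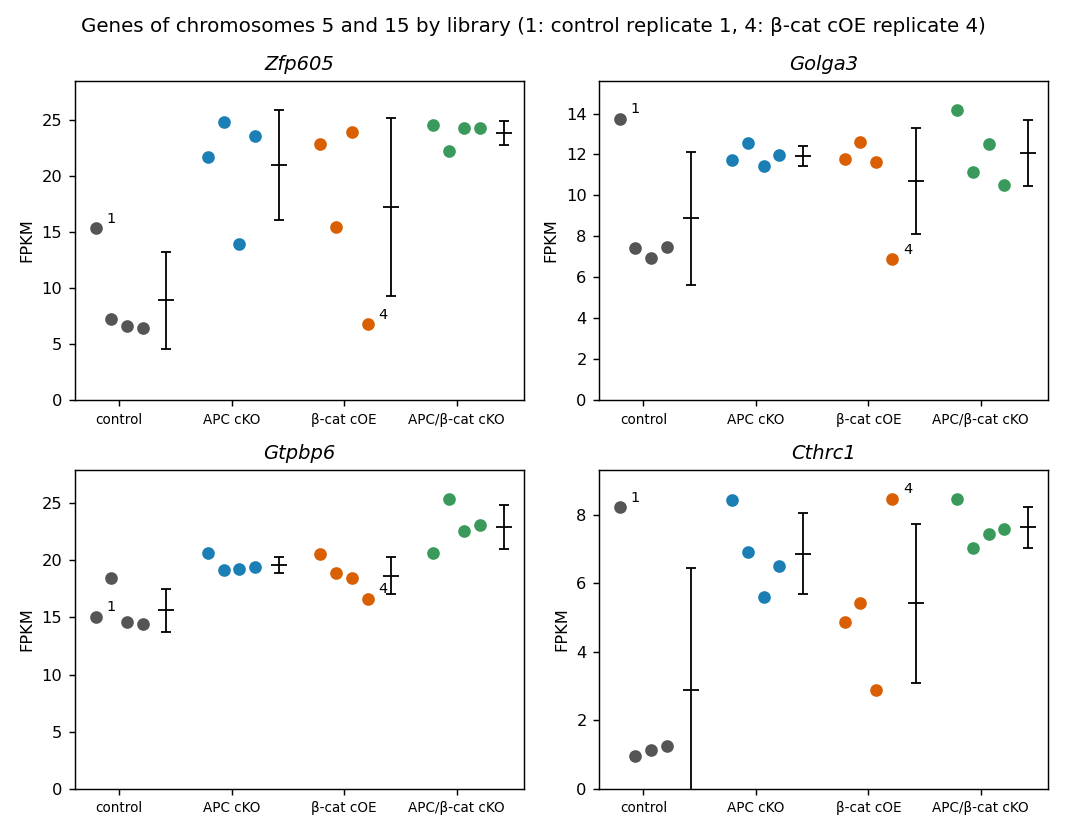
FPKM of Zfp605, Golga3 and Gtpbp6 on chromosome 5 and of Cthrc1 on chromosome 15 in each library (dots), by genotype, with the mean and SD of each group of 4 libraries at its right (black, cut at 0 for Cthrc1 in controls). Control replicate 1 (marked 1) is far above the other controls in Zfp605, Golga3 and Cthrc1, and β-cat cOE replicate 4 (marked 4) is at the level of the low controls in Zfp605 and Golga3 but not in Cthrc1.

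Control replicate 1 moved the number of calls the most of all libraries. Without it, 28 genes were called instead of 5, and 8 of these had one sign and a similar size in all lines. The 8 were Fam131b, Casp2, Zyx and Gstk1 together with Cthrc1, Nudcd1, Zfp605 and Tusc1. Cthrc1, which encodes a secreted protein with a collagen repeat, was at 8.22 FPKM in control replicate 1, at 0.952, 1.14 and 1.26 FPKM in the other controls, and at 2.88 to 8.47 FPKM in the Cre lines. Its change of 1.73 (adjusted p = 0.293) became 2.43 (adjusted p = 6.22e-05) without control replicate 1. Nudcd1 went from 0.32 (adjusted p = 0.508) to 0.46 (adjusted p = 0.0255), Tusc1 from 0.56 (adjusted p = 0.218) to 0.66 (adjusted p = 0.0392), and Zfp605 from 1.23 to 1.53 (adjusted p = 0.0312). Without that library Fam131b changed by 0.73, Casp2 by -0.96, Zyx by 0.52 and Gstk1 by -0.87.

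That library was female and its striatal signal was high, and the part of either in these values was not tested. Striatal signal was high in other libraries too. The summed FPKM of 14 striatal genes ran from 145.6 to 572.4 in controls, from 176.5 to 782.4 in the APC cKO line, from 149.9 to 418.5 in the β-cat cOE line, and from 174.9 to 558.2 in the APC/β-cat cKO line. The 13 of these genes that were tested had a median change of 0.30 between the lines and control, all 13 positive, with 0 at an unadjusted p under 0.05. Without control replicate 1 that median was 0.72, with 1 gene at such a p, and without both female libraries 0.86, with 5. No gene of that list was at 0 in every library. Because the tissue was bulk, fewer cells of a type and less RNA per cell cannot be told apart in any of these values.

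Lists of related genes were described by their counts beside those of all genes, of which 4.65% were higher and 4.34% lower at an unadjusted p under 0.05, with a median change of -0.0017. Without control replicate 1, 666 of all 13986 tested genes were higher and 456 lower at that threshold, against 650 and 607 of 13978 with it. List counts without that library are to be read beside these. Immediate early genes, which neurons switch on within minutes of activity, stood at a median of 0.38 over 19 genes. Of these, 16 had a positive change, 6 were higher at an unadjusted p under 0.05 (Jun, Ier2, Btg2, Junb, Dusp1 and Fosb), none was lower and 0 were called. By line the median was 0.54, 0.082 and 0.37. With quantile normalization 5 were higher, and without control replicate 1 only 2 were, with medians of 0.36 and 0.37.

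Ier2, a small nuclear protein of this class, was at 3.33 to 5.17 FPKM in controls and at 4.39 to 8.66 FPKM in the lines, and its change was 0.47, 0.45 and 0.48 by line (adjusted p of the mean = 0.523). Btg2, which slows cell division, was at 3.73 to 7.73 FPKM in controls and at 5.67 to 14.4 FPKM in the lines (0.58, adjusted p = 0.535). Junb, another AP-1 subunit, was at 14.6 to 23.1 FPKM in controls and at 13.0 to 38.7 FPKM in the lines (0.52, adjusted p = 0.536). The groups overlapped in all 3 of these genes. Arc and Egr1, widely used marks of activity, had changes of 0.42 and 0.11 with line values that ran on both sides of 0.

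**Figure D5:**
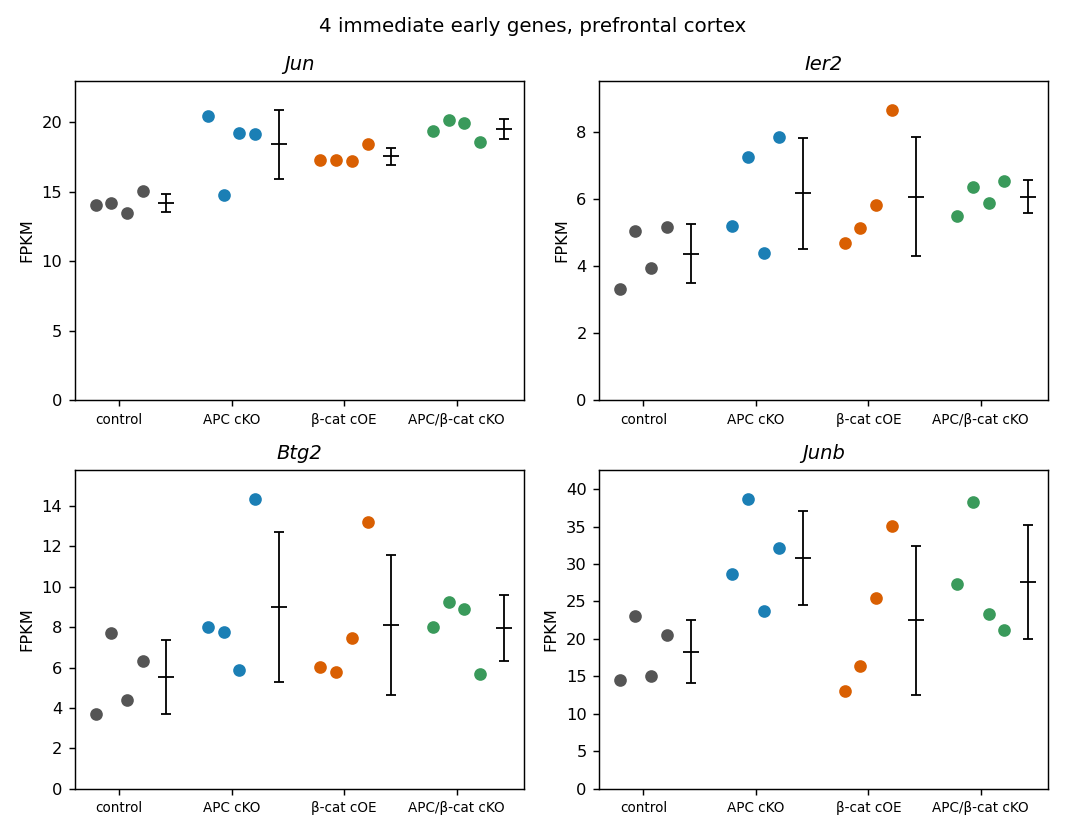
FPKM of Jun, Ier2, Btg2 and Junb in each library (dots), by genotype, with the mean and SD of each group of 4 libraries at its right (black); every axis starts at 0. In Jun 11 of 12 Cre libraries lie above all 4 controls, while Ier2, Btg2 and Junb overlap the controls in several libraries.

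Among genes related to the called ones, none but Casp2, Zyx and Apc was called. Of 21 tested caspases and regulators of apoptosis, Casp2 and Birc2 (-0.098) were lower and Diablo, an inhibitor of the Birc proteins, was higher (0.25) at an unadjusted p under 0.05, and the median change was 0.024. Without control replicate 1 only Casp2 was past that threshold, and the median was -0.038. Among 22 tested p53 targets and genes of the DNA damage response, Bax (0.22), Gadd45g (0.31) and Phlda3 (0.23) were higher and Ccng1 (-0.16) was lower. Without control replicate 1 the count was 3 higher and 0 lower, but not of the same genes. Bax was still among them (limma's unadjusted p = 0.0382), while Gadd45g (0.0797) and Phlda3 (0.0866) were not. Of 19 tested zyxin relatives and focal adhesion genes, Zyx, Parvb (0.31) and Pxn (0.19) were higher and 0 were lower, with a median of 0.044. Pxn lies in the chromosome 5 window described above. Without control replicate 1 the list again had 3 higher and 0 lower, but Pxn was not among them (0.14, limma's unadjusted p = 0.0909). Of 16 tested glutathione transferases, Gstk1 was lower and Mgst1 (0.37) and Gstm7 (0.29) were higher. Without control replicate 1 this list had 0 higher and 2 lower, with Mgst1 at 0.31 and Gstm7 at 0.16. Apart from the called Casp2 and Zyx, the adjusted p-values of all these genes were above 0.05.

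In the destruction complex and among the Wnt targets, only Apc was called. In the complex, 3 of 12 genes were lower, Apc and, at small sizes, Csnk1a1 (-0.10) and Btrc (-0.13), which encode a casein kinase and a ubiquitin ligase adaptor for β-catenin. The unadjusted p was 0.0490 for Csnk1a1 and 0.0497 for Btrc, and the count was 1 with quantile normalization and 2 without control replicate 1. Without control replicate 4 Csnk1a1 was at -0.056. Of 13 tested Wnt targets, only Ccnd1, the cyclin D1 gene, was higher at an unadjusted p under 0.05 (0.33, with 0.36, -0.018 and 0.64 by line). Axin2, a negative regulator that β-catenin induces, had a change of 0.32, 0.052 and -0.15 by line. The median of the list was 0.075, and by line 0.27, 0.070 and -0.022.

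No gene of the neuronal lists was called. Camk2a, the gene whose promoter drives the Cre transgene, was at 678 ± 11.4 FPKM in controls (SD, n = 4) and at 642 ± 49.7 FPKM in the Cre libraries (SD, n = 12), a change of -0.083 (adjusted p = 0.641). Of 13 CaM kinase genes, Camk2d (0.15) and the kinase inhibitor Camk2n2 (0.16) were higher and Camk1g (-0.32), Camk2g (-0.18) and Camk4 (-0.26) lower at an unadjusted p under 0.05, against 0 higher and 2 lower without control replicate 1. Among genes of excitatory neurons, Bhlhe22, a transcription factor, was at 0.19, higher at that threshold. Of 15 genes of cortical layers Fezf2 was lower (-0.25) and Ntng2 (0.25) and Nr4a2 (0.53) were higher. Of 21 interneuron genes, Pvalb (-0.50, with -0.81, -0.53 and -0.15 by line) and Vip (-0.24) were lower, and 3 were without control replicate 1. Genes of glutamate receptors and their scaffolds had a negative change in 18 of 19, against 7070 of all 13978 tested genes. Their median was -0.10, and by line -0.068, -0.060 and -0.19. Only Gria4 (-0.24), an AMPA receptor subunit, was lower at an unadjusted p under 0.05. With quantile normalization the count of negative changes was again 18, and without the 2 female libraries it was 16.

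Slc17a7, Nrgn and the other genes of the excitatory list were above 0 in all libraries, which does not by itself identify the prefrontal cortex. Their summed FPKM was 2182 to 2363 in controls and 1853 to 2445 in the Cre libraries. At an unadjusted p under 0.05, lists of oligodendrocytes (14 tested genes), endothelium (14), choroid plexus and ependyma (9), blood (3), the interferon response (19) and the heat shock and unfolded protein responses (20) had 0 genes in either direction. Astrocyte genes had 1 higher (Gfap) and 1 lower (S100b) of 15, and mural cells and fibroblasts of the meninges 1 lower of 14 (Rgs5). Precursors of oligodendrocytes had 1 of 11 higher (Lhfpl3), immature neurons and dividing cells 1 of 9 (Top2a) and reactive glia 1 of 15 (Gfap). The 9 choroid plexus and ependyma genes had a median change of 0.52 (0.41 without control replicate 1). The summed FPKM of the 12 genes of that list was 13.5 to 17.9 in controls and 10.8 to 49.3 in the Cre libraries. The 9 genes of immature neurons and dividing cells had a positive change in all 9, with a median of 0.29, but by line it was 0.53, 0.36 and 0.081. Of these 9 genes, 8 were positive without control replicate 1 and 7 without the 2 female libraries. Without control replicate 1 the astrocyte and reactive glia lists had 0 genes in either direction, and the choroid plexus, endothelium and heat shock lists had 1 each. Of 10 genes of the glucocorticoid response, Ddit4 (0.21, and 0.13 with an unadjusted p of 0.173 without control replicate 1) was higher and Zbtb16, a zinc finger repressor, was lower, at 7.35 to 14.4 FPKM in controls and 3.50 to 7.27 FPKM in the lines (-0.74, adjusted p = 0.378), without overlap. Of 9 tested autism-linked genes that the study chose on these libraries, which is therefore not independent of them, 7 had a positive change and the median was 0.27. At an unadjusted p under 0.05 Kirrel3 (0.25) was higher and Pvalb and Camk4 were lower, against 4 higher and 1 lower without control replicate 1.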

How the data were processed

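RNA had been prepared with a stranded mRNA kit and sequenced in pairs. The authors aligned reads to mm10 with TopHat2 2.0.10 and derived gene values with Cuffdiff 2.1.1, after bcl2fastq, per the submitters' processing notes. The deposited values are log2(FPKM + 1) per gene and library. The base of the logarithm was inferred from the values, since a natural log would give sums of 4699269 to 5747039 FPKM a library against 452831 to 496015 in base 2. Of 23284 genes, 25 symbols had been turned into dates. Cuffdiff normalization between libraries is already in the values, no counts are given and depth is unknown.

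Values were returned to FPKM and fitted with limma 3.58.1 in R 4.3.3 with a trend on log2(FPKM + 0.1), with 1 mean per genotype, 12 residual degrees of freedom and a contrast that weighed the lines equally. This scale understates the change of low genes. Single genes were checked by an exact permutation test. The fit was checked on simulated data. Alternatives changed the offset, filter, scaling, spread, covariates, lines and libraries. Named genes were Apc, Ctnnb1, called genes (at most 12 rises and 12 falls), the 4 genes of chromosome 6, sex genes, and up to 3 members of each list with the smallest p. All others, in the report and below, were chosen after their values were seen. The comparison and lists were chosen with earlier results of these data known. Gene positions are from the files and GENCODE vM21. Replicate numbers were given no pairing, since same-numbered libraries correlated between -0.22 and 0.32 in their deviations from group means. The results of some list members are not reported here.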

Additional observations from a re-analysis of the deposited data

Results flagged for a closer look

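Apc and Wwox differed among the 3 lines by limma's F test, with adjusted p-values of 4.56e-05 and 1.79e-09, because Apc fell in the 2 lines with APC fl/fl and Wwox rose in APC/β-cat cKOs. In 19 of 256 groups of 4 libraries, from 64 genes, 1 library stood apart by Dixon's ratio (its gap to the nearest library over the range), and chance alone gives about 1 in 20 groups, or 12.8. Control replicate 1 was that library for Zfp605 (ratio 0.855), Cthrc1 (0.876), 6330527O06Rik (0.911), Golga3 (0.894), Vip (0.835) and Ulk1 (0.883). Other controls were far for Pnmal2 (replicate 4, 0.872) and Phlda3 (replicate 2, 0.894).

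In β-cat cOEs it was Zyx in replicate 3 (0.994), Jun in replicate 4 (0.957), Pxn in replicate 2 (0.860), Nudcd1 in replicate 1 (0.902) and Golga3 in replicate 4 (0.868). Among APC/β-cat cKOs it was Sgpp2 (0.988), Pxn (0.861) and Vip (0.883) in replicate 1 and Zfp605 in replicate 2 (0.896). Among APC cKOs it was Sgpp2 in replicate 4 (0.916) and Gfap in replicate 1 (0.847). For Zyx and Jun the other 3 libraries lay close together, so that a small distance gave a high ratio.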

How the results depend on the processing

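Fam131b and Casp2 passed the adjusted threshold under all 31 alternatives, with log2 changes of 0.73 to 0.76 and -0.98 to -0.70, and Zyx under 30, with an adjusted p of 0.104 without the APC/β-cat cKO line. Leaving out a library, line or gene shows how far the results rest on it, and why they moved was not tested. Leaving out single libraries gave 4 (without control replicate 4) to 28 (without control replicate 1) called genes, 2 to 19 of them higher and 2 to 9 lower, those of one sign and similar size 2 (without APC cKO replicate 3) to 8 (without control replicate 1), and those that differed in each line 58 (without β-cat cOE replicate 4) to 144 (without control replicate 2). Genes that differed among the lines were 17 (without β-cat cOE replicate 1) to 68 (without control replicate 1). Without the 2 female libraries, 26 genes were called, 16 higher and 10 lower, 7 of them of one sign and similar size, and 57 differed among the lines.

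Without the APC cKO line 9 genes were called, 5 of them lower, 186 differed in each line and 17 between the lines. Without the β-cat cOE line 11 were called, 6 higher and 5 lower, 8 of one sign and similar size, and 394 differed in each line. Without the APC/β-cat cKO line 2 were called, 1 higher and 1 lower, 276 differed in each line and 6 between the lines. With 2 groups of 12 and 4 there were 3 calls, 1 of them lower, with log2(FPKM + 1) 4 lower, and with a mean of at least 2 FPKM 5 of one sign and similar size. At an adjusted p under 0.01, 12 genes differed among the lines. With the title number as a replicate block 5 genes were called, 63 differed in each line and 15 among the lines, and with the number in the column headers, chosen after seeing the data, 4, 86 and 25. By title number 5 of 16 libraries correlated best with their own number, and by header number 6 of 16. The numbers were not used as pairs, but with so few libraries this cannot exclude that those of one number were processed together.

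The sign turned for Ctnnb1 without the APC cKO line (-0.025) and without control replicate 3 (-6.16e-05, with up to 0.031 when another single library was left out), and for Wwox without the APC/β-cat cKO line (-0.16). Depth is unknown, so counting error could not be set apart from the spread between libraries.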
